A study of Mus musculus with 6 samples.

Results

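The transcription factors that set dorsal identity and area identity in the embryonic cerebral cortex were followed in mouse dorsal telencephalon with a conditional deletion of the histone methyltransferase ESET. The genes are Emx1, Emx2, Lhx2, Pax6, Gli3, Nr2f1, Nr2f2, Sp8 and Dmrta2, chosen by name. Their members are the 21 probe sets that the platform annotation gives to one of these 9 genes alone, out of 45037 probe sets on the array and 18193 genes with such a probe set. The 3 conditional knockout arrays (cKO) carry RNA from embryos with a deletion of ESET, the product of Setdb1, made with Emx2Cre. The 3 wild-type arrays (WT) carry RNA from embryos without it. All 6 samples are labelled as dorsal telencephalon of male embryos at E14.5 on a C57BL\6 background, and the design text counts 3 embryos of each genotype. Cre is expressed from Emx2, itself a member, in dorsal telencephalic progenitors and their descendants, so that cells of other origin in the dissected tissue keep an intact gene. Whether the WT embryos carried the Cre allele or floxed alleles, and whether the Cre allele still makes Emx2, is not stated in the labels. For Emx2 above all, the presence of the Cre allele and the loss of ESET therefore cannot be told apart.

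During forebrain development, signalling centres at the edges of the cortical sheet release FGF, WNT, BMP and Hedgehog ligands. The cells of the sheet translate these signals into graded levels of transcription factors. Lhx2 and Emx2 hold cortical identity against the hem at the medial edge, Pax6 and Gli3 hold the border with the ventral telencephalon, and Dmrta2 acts at the medial side. Opposing gradients of Emx2, Pax6, Sp8 and Nr2f1 then place the motor, sensory and visual areas. ESET is a lysine methyltransferase that writes the repressive mark of histone H3 lysine 9 trimethylation.

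The arrays numbered 3 stood apart in both genotypes. WT 3 is labelled male, yet its Xist intensity was 17294 and its Eif2s3y intensity 22.2, against 42.3 to 59.0 for Xist and 1927 to 1973 for Eif2s3y on the other WT arrays. cKO 3 read 8811 for Xist and 961 for Eif2s3y, against 34.1 to 39.5 and 2103 to 2186 on the other cKO arrays. The sum of 10 measured erythroid genes, out of 13 written in the list, was 74192 on cKO 3 and 11344 to 17292 on the other cKO arrays, and 69526 on WT 3 and 12617 to 16588 on the other WT arrays. Results are therefore also given without these 2 arrays. Median intensities ran from 91.1 to 119 over the 6 arrays. The cortical markers Tbr1, from 3014 to 4679, and Neurod6, from 13756 to 22332, were bright on every array. Nkx2-1, which marks the ventral medial ganglionic eminence, read 5.9 to 63.2. Not all ventral genes were that dim, and Gad1 read 958 to 1724. Setdb1 itself read 704, 696 and 499.9 on the cKO arrays and 1162, 1185 and 1033 on the WT arrays on its brightest probe set. The log2 fold change, here and throughout the mean of cKO minus that of WT on log2(intensity + 16), was -0.83 (SE 0.18, the standard error), short of the threshold of 0.05 (limma, adjusted p = 0.237), and -0.73 (SE 0.16) without the arrays numbered 3. Its 2 dim probe sets were at -0.44 and -1.14. Which exons are deleted is not given, so these probe sets may lie outside the deleted part.

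Of the 9 patterning genes, Emx2 had the largest difference on the brightest probe set of each gene, reading 0.554 times the WT mean in cKO. On the brightest probe set of each of the other 8 genes the cKO and WT ranges overlapped. Nr2f2 was higher in cKO on 5 of its 6 probe sets, which measure the same RNA samples, by amounts that did not pass the test. Over all 21 probe sets limma called 0 at an adjusted p of 0.05, where 0.275% of all 45037 probe sets were called, 0.224% higher and 0.0511% lower in cKO. At an unadjusted p under 0.05 there were 2 member probe sets, 1 lower (Emx2) and 1 higher (Nr2f2), or 9.52% against 7.9% of all probe sets (4.57% higher and 3.33% lower). The cKO and WT arrays did not overlap on 3 member probe sets, 1 below (Emx2) and 2 above (both Nr2f2), or 14.3% against 13.5% of all probe sets (7.47% above and 6.07% below). These shares are near the background. The median log2 fold change of the 21 probe sets was 0.070, beside 0.018 for all probe sets. With 3 arrays per genotype the intervals are wide: 95% intervals lay wholly between -1 and 1 on the log2 scale for 15 of the 21.

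**Figure D1:**
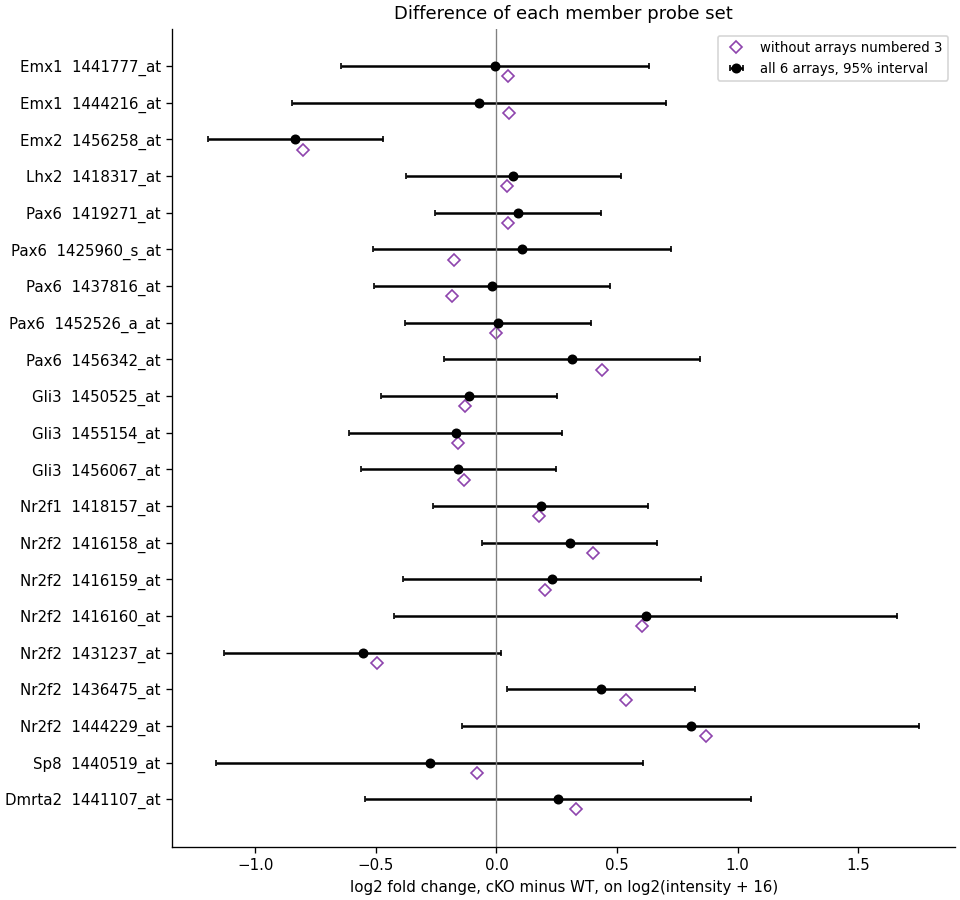
Log2 fold change of each of the 21 probe sets, cKO minus WT on log2(intensity + 16), with its 95% interval (filled circles and bars), and the value without the arrays numbered 3 (open diamonds). The interval of Emx2 lies wholly below 0 and that of 1 Nr2f2 probe set wholly above it, and the other 19 include 0.

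Emx2 and Emx1 are paralogous homeodomain factors, and Emx2 is high at the caudal and medial side of the cortex, where it favours visual area fates. Emx2 read 674, 647 and 743 on the cKO arrays, against 1198, 1129.5 and 1395 on the WT arrays, on its only probe set (Entrez 13797). Every cKO array lay below every WT array. The means were 688 ± 49.6 in cKO and 1241 ± 138 in WT (SD, n = 3 each), a log2 fold change of -0.83 (SE 0.15, 95% interval -1.20 to -0.47). The unadjusted p was 0.00114, and after adjustment over all probe sets the difference did not pass (limma, adjusted p = 0.142). It did pass where probe sets with a mean below the median were left out (adjusted p = 0.0377) and with a variance trend and robust eBayes settings (adjusted p = 0.0259), with the same fold change. Without the arrays numbered 3 it was -0.80 (SE 0.16, adjusted p = 0.354). Between those 2 arrays alone it was -0.90, so the difference was of like size within each set of arrays. In a bulk sample, fewer cells of a type and less RNA per cell cannot be told apart.

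Emx1 marks the same progenitors and their excitatory neurons. On its brightest probe set (Entrez 13796) Emx1 read 1091, 693 and 1149.6 on the cKO arrays, against 784, 904 and 1242 on the WT arrays. The 2 ranges covered almost the same span, and the log2 fold change was -0.0053 (SE 0.27, 95% interval -0.64 to 0.63). That interval does not reach the -0.83 of Emx2, and the difference between the 2 genes was not itself tested. Its sign turned without cKO 2 (0.22) or without WT 3 (0.18). A second, dimmer Emx1 probe set read 168, 135 and 233 in cKO and 146, 143 and 294 in WT, at -0.071 (SE 0.32), and both probe sets were highest on array 3 in each genotype.

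**Figure D2:**
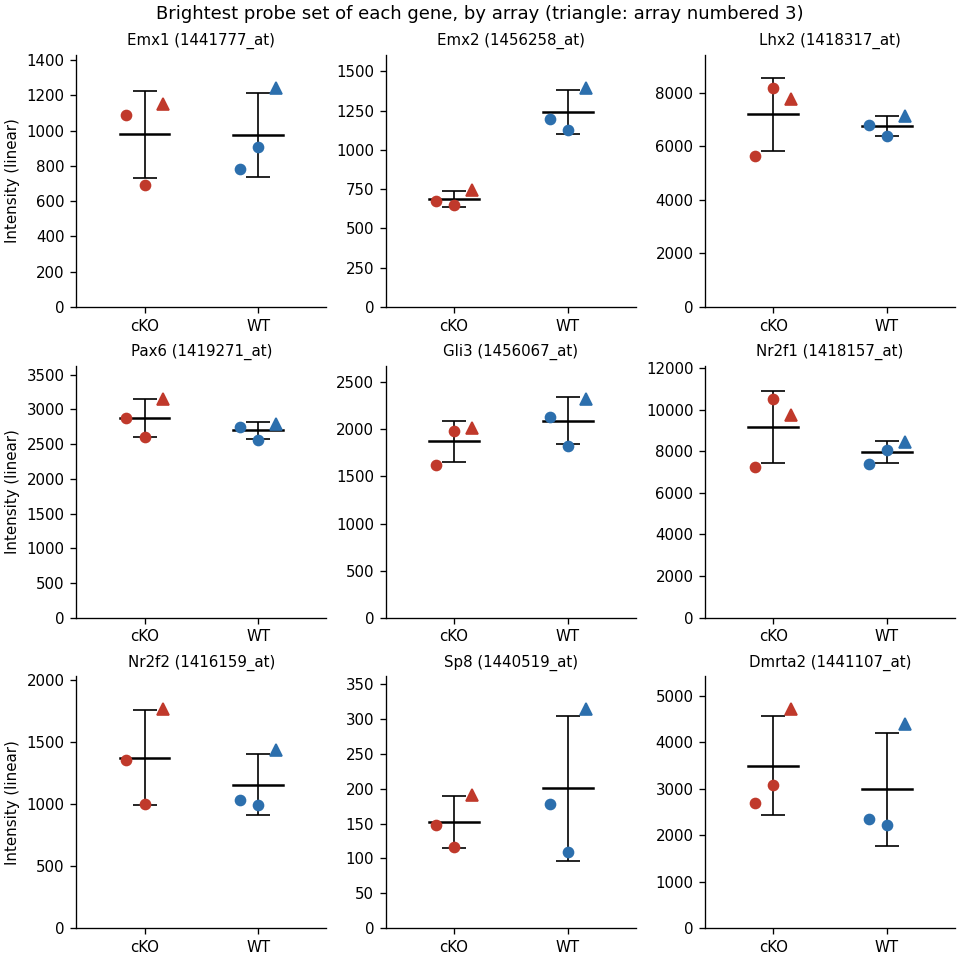
Intensity on a linear scale of the brightest probe set of each gene on each array, with the mean and SD of 3 arrays per genotype (lines and bars) and triangles for the arrays numbered 3. Emx2 is the only one of the 9 panels in which the cKO arrays, from 647 to 743, and the WT arrays, from 1129.5 to 1395, do not overlap.

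The upstream sequences of the 2 Emx genes are shown because one locus carries Cre and the other, its paralogue, does not. They are the 250 bases before the start of each gene on its own strand, from RefSeq (GRCm38.p6), at chr19:59458440-59458689 for Emx2 and chr6:85187681-85187930 for Emx1, both on the plus strand. Capitals mark the GC box GGGCGG, the site read by zinc finger factors of the SP family, searched on both strands with overlapping matches counted.
Emx2: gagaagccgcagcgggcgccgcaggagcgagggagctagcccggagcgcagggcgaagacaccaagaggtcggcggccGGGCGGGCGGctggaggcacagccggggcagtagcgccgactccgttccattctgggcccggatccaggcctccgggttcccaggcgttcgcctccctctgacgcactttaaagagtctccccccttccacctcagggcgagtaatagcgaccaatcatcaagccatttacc
Emx1: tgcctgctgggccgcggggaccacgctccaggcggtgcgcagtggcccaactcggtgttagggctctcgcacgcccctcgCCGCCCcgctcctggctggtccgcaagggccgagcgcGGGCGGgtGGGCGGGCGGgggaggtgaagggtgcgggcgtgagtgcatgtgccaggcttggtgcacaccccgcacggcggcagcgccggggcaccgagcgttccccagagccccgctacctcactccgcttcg
Emx2 holds 2 overlapping GC boxes and Emx1 holds 4, of which 2 overlap. GGGCGG occurs in 32.7% of all 32851 RefSeq windows of this length and in 6 of the 14 windows of the 9 genes. Emx2 has 24 CpG dinucleotides in its window and Emx1 has 30, where the median of all windows is 6. The homeodomain core TAATTA, in 4.84% of all windows, and the nuclear receptor half-site AGGTCA, in 14% of them, were in neither.

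The genes measured on either side of Emx2 on chromosome 19 had log2 fold changes of 0.0021 to 0.25. They were looked up after the Emx2 values were seen. Emx2os, the transcript antisense to Emx2, read 80.7, 107 and 173 in cKO and 115.5, 109 and 115.4 on the WT arrays, and its log2 fold change was 0.018 (SE 0.25). The range of Emx2os in cKO included all 3 WT values. Rab11fip2, a Rab11 effector of membrane recycling, was at 0.17 (SE 0.12). Every cKO array lay above every WT array for Rab11fip2, as for 7.9% of all genes. Pdzd8, a protein of membrane contact sites, was at 0.0021 (SE 0.16). The remaining neighbour, 2700089I24Rik, read 2.8 to 30.2 over the 6 arrays, too dim to compare. The labels do not say whether the probes tell the 2 strands apart.

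The genes whose array profile was most like that of Emx2 were Magi3, a membrane scaffold protein, Kcnk2, a potassium channel, Srgap1, a SLIT-ROBO GTPase activating protein, Sparcl1, a matricellular protein, and BC052040. They were taken from 9348 genes with a mean intensity of at least 200 by the root-mean-square difference of centred log2 values over the 6 arrays, which ran from 0.0803 to 0.0988. The 5 genes had log2 fold changes between -0.92 (Sparcl1) and -0.80 (Kcnk2), and the cKO arrays lay below the WT arrays for each of them. Their choice uses the same values, so it is a description and no test.

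Lhx2, a LIM homeodomain factor that selects cortical identity, was bright on every array. On its only probe set (Entrez 16870) Lhx2 read 5630.4, 8190.4 and 7770 on the cKO arrays, against 6797, 6395 and 7122 on the WT arrays. The cKO arrays surrounded the WT arrays, and their SD was larger, 1373 beside 364. Lhx2 was at a log2 fold change of 0.070 (SE 0.19, 95% interval -0.38 to 0.52), and it was -0.032 without cKO 2. Without the arrays numbered 3 it was 0.043 (SE 0.24).

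Pax6, a paired-box factor that keeps the border with the ventral telencephalon and favours rostral areas, was measured by 5 probe sets (Entrez 18508). On the brightest it read 2878, 2607 and 3157 on the cKO arrays, against 2749, 2557 and 2794 on the WT arrays. This gave a log2 fold change of 0.089 (SE 0.14, 95% interval -0.26 to 0.43). The groups overlapped here as on the other 4 probe sets. Of these, 1452526_a_at read 805, 733 and 793 in cKO and 892, 662 and 780.4 in WT, at 0.0072 (SE 0.16). The remaining 3 were dim, with group means from 77.6 to 159, and lay between -0.019 and 0.31. On 1425960_s_at the sign turned without the arrays numbered 3 (-0.17 beside 0.11), where cKO 3 read 224 and the other 5 arrays 105 to 149. No Pax6 probe set passed the test in either fit.

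Gli3, the zinc finger effector that acts mainly as a repressor when Hedgehog signalling is low, was lower in cKO by a small amount on all 3 of its probe sets (Entrez 14634). On the brightest it read 1622, 1982 and 2019.6 on the cKO arrays, against 2131, 1823.5 and 2327 on the WT arrays. The means were 1875 ± 219 in cKO and 2094 ± 254 in WT, and the groups overlapped. They gave a log2 fold change of -0.16 (SE 0.17, 95% interval -0.56 to 0.25). The other bright probe set was at -0.17 (SE 0.18), and the dim one, which read 55.3 to 76.0 over all 6 arrays, at -0.11 (SE 0.15). Without the arrays numbered 3 the 3 values were -0.14, -0.16 and -0.13.

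The other genes of the Hedgehog pathway were 13 of 14 written in the list, with a median log2 fold change of 0.023 in the gene table, where the median of all 18193 genes was 0.0068. Limma called 0 of them, where 0.627% of all genes were called. There were 2 higher and 0 lower before adjustment (p under 0.05), where 5.17% of all genes were higher and 4.39% lower. The groups did not overlap for 3 genes above and 1 below, where 7.9% and 7.64% of all genes did so. Gli1, the activator whose transcription reports Hedgehog signalling, read 60.8, 86.6 and 74.0 in cKO and 33.0, 52.2 and 28.3 in WT, at 0.75 (SE 0.21, adjusted p = 0.264). Every cKO array lay above every WT array for Gli1, at low intensities. Hhip, which binds Hedgehog ligands, was at 0.76 (SE 0.26), from means of 22.6 in cKO and 7.46 in WT that straddle the pseudocount. Boc, a co-receptor, was at 0.36 (SE 0.16), and Ptch1, the receptor and another target of the pathway, was at 0.037 (SE 0.20).

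Nr2f1 and Nr2f2 encode the orphan nuclear receptors COUP-TFI and COUP-TFII. Nr2f1 is graded across the cortical sheet and sets the sensory areas, and Nr2f2 is high in the caudal ganglionic eminence, in caudal cortex and, outside the brain tissue proper, in venous endothelium and mesenchyme. Nr2f1 (Entrez 13865) read 7225, 10537 and 9724 on the cKO arrays, against 7403, 8054 and 8455 on the WT arrays. The lowest array of all was cKO 1 and the highest were the other 2 cKO arrays. The log2 fold change of Nr2f1 was 0.18 (SE 0.19, 95% interval -0.26 to 0.63), and without the arrays numbered 3 it was 0.18 (SE 0.25).

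Nr2f2 (Entrez 11819) had the most probe sets, 6, and they differed in size and spread. On the brightest, 1416159_at, it read 1361, 1004 and 1768 on the cKO arrays, against 1035, 997 and 1441 on the WT arrays. Here the groups overlapped, at a log2 fold change of 0.23 (SE 0.26, 95% interval -0.39 to 0.85). On 1436475_at it read 558, 503.5 and 542 in cKO and 384, 338.5 and 459 in WT, and every cKO array lay above every WT array. The means of 535 ± 28.2 in cKO and 394 ± 61.1 in WT gave a log2 fold change of 0.43 (SE 0.16, 95% interval 0.046 to 0.82), with an unadjusted p of 0.0335 and an adjusted p of 0.572 by limma. On 1416158_at it read 255, 230.0 and 229 in cKO and 165, 195 and 210.5 in WT, also without overlap, at 0.30 (SE 0.15, adjusted p = 0.731).

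The other 3 Nr2f2 probe sets were dimmer or more scattered. On 1416160_at the values were 231, 221 and 513 in cKO and 164, 125 and 321.5 in WT, at 0.62 (SE 0.43). On 1444229_at they were 58.9, 101 and 146 in cKO and 27.7, 44.0 and 85.2 in WT, at 0.81 (SE 0.39). Both were highest on array 3 in each genotype. The sixth, 1431237_at, read 6.5, 9.9 and 15.2 in cKO and 23.4, 13.3 and 33.7 in WT, mostly near or below the pseudocount of 16, and pointed the other way at -0.55 (SE 0.24). Without the arrays numbered 3, limma gave an unadjusted p under 0.05 for 3 of the 6 probe sets, all higher in cKO, at 0.54 for 1436475_at, 0.60 for 1416160_at and 0.87 for 1444229_at. Their adjusted p ran from 0.544 to 0.578, where 8.42% of all probe sets had an unadjusted p that low. With those arrays kept as a block the same 3 were higher and the sixth lower at an unadjusted p under 0.05. In that fit 10.4% of all probe sets had such a p, and 0 of the 6 passed after adjustment. The 6 probe sets measure 1 gene in the same RNA samples, so these counts are not counts of independent results.

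**Figure D3:**
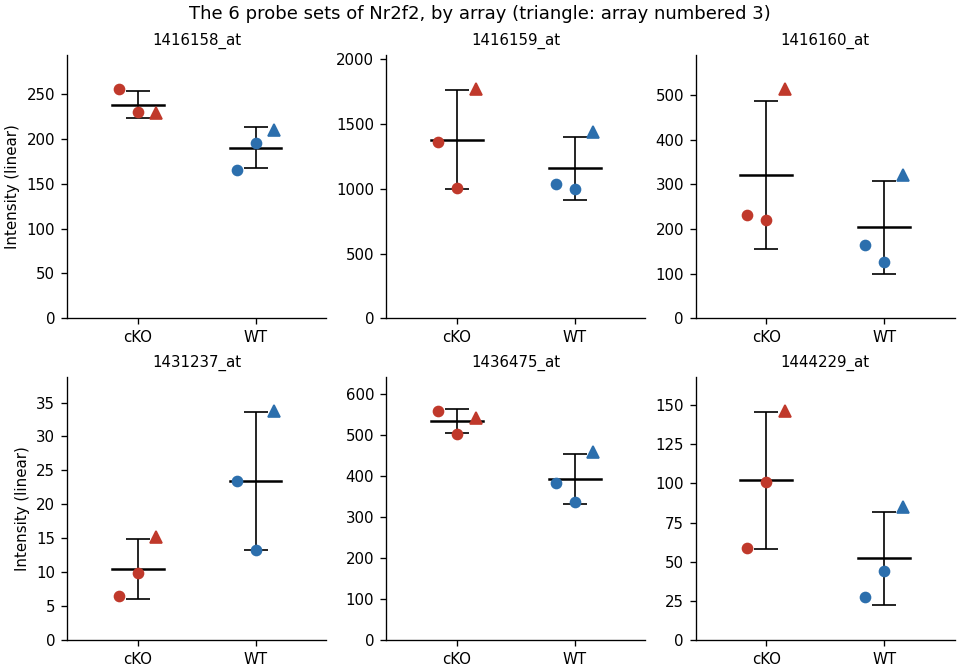
Intensity on a linear scale of the 6 Nr2f2 probe sets on each array, with the mean and SD of 3 arrays per genotype and triangles for the arrays numbered 3. The cKO arrays lie above the WT arrays on 1416158_at and 1436475_at, overlap them from higher means on 3 others and from a lower mean on 1431237_at.

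Lists for tissues that include other cells with Nr2f2 were read beside it. The lists are broad and do not single out venous endothelium or the caudal ganglionic eminence. The part of these tissues in the Nr2f2 values was not tested. Of 15 endothelial and pericyte genes, 0 were higher and 5 lower before adjustment (p under 0.05), where 5.17% of all genes were higher and 4.39% lower. They had a median log2 fold change of -0.26 and a summed intensity of 6209 to 7232 in cKO and 6992 to 8364 in WT. Most of that sum was Nrp1 alone, which read 3532 to 4495 in cKO and 3548 to 4713 in WT, at -0.013. The overlap of the sums therefore says little on the dimmer genes of the list. Abcc9 and Tie1, of pericytes and endothelium, were at -1.05 and -0.85, and Emcn, an endothelial sialomucin, at -0.46. Tie1 was dim, with means of 21.8 in cKO and 50.8 in WT. Of 13 meningeal genes 0 reached an unadjusted p of 0.05 in either direction, beside 9.56% of all genes. Their sum was 3607 on cKO 3 and 1057 to 1267 on the other cKO arrays, beside 1309 to 2025 in WT, and their median of 0.19 became -0.25 without the arrays numbered 3. Crabp2, at -0.63, Slc6a13, at 0.36, and Vtn, at -0.23, had the smallest p among them. Of 16 ventral telencephalic genes measured of 19, 2 were higher (Gad1, an enzyme of GABA synthesis, at 0.48, and Nkx2-1, at 1.01 from intensities close to background) and 1 lower (Olig2, at -1.10) before adjustment, beside the same 5.17% and 4.39% of all genes. The ventral list summed to 4519 to 4790 in cKO and 3578 to 5412 in WT. None of the genes of these 3 lists was called in either direction, where 0.627% of all genes were called.

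Sp8, a zinc finger factor high in rostral cortex where FGF8 acts, and Dmrta2, a DM-domain factor of the caudomedial cortex, varied more between arrays than between genotypes. Sp8 (Entrez 320145) read 148, 117 and 191 on the cKO arrays, against 179, 109 and 314 on the WT arrays. The log2 fold change was -0.28 (SE 0.37, 95% interval -1.16 to 0.61), and its sign turned without WT 3 (0.082). Dmrta2 (Entrez 242620) read 2699, 3083 and 4709 on the cKO arrays, against 2354, 2225 and 4389 on the WT arrays. Within each genotype array 3 was the highest for both genes. For Dmrta2 the 2 remaining cKO arrays lay above the 2 remaining WT arrays, and the log2 fold change of 0.25 (SE 0.33, 95% interval -0.55 to 1.06) was 0.33 (SE 0.17, adjusted p = 0.735) without the arrays numbered 3. For Sp8 it was then -0.081 (SE 0.28).

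The brightness of array 3 was common to the set. The brightest probe set of each of the 9 genes was higher on array 3 than the mean of the other 2 arrays in both genotypes, as were 16 of the 21 probe sets, beside 38.2% of all probe sets. The median offset of the 21 was 0.295 (log2) in cKO and 0.259 in WT, beside 0.060 and 0.039 over all probe sets. On the brightest probe set of each gene, Emx2, Lhx2, Pax6, Gli3 and Nr2f1 were offset by at most 0.26, and Emx1, Nr2f2, Sp8 and Dmrta2 by 0.40 to 1.08. Dimmer probe sets of the same gene could differ from it, as did 1425960_s_at of Pax6 at 0.76 in cKO and 1416158_at of Nr2f2 at -0.076 in cKO. These probe sets share the same 2 arrays, whose Xist and erythroid signals also differed as given above, and the part of either in the offset was not tested.

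**Figure D4:**
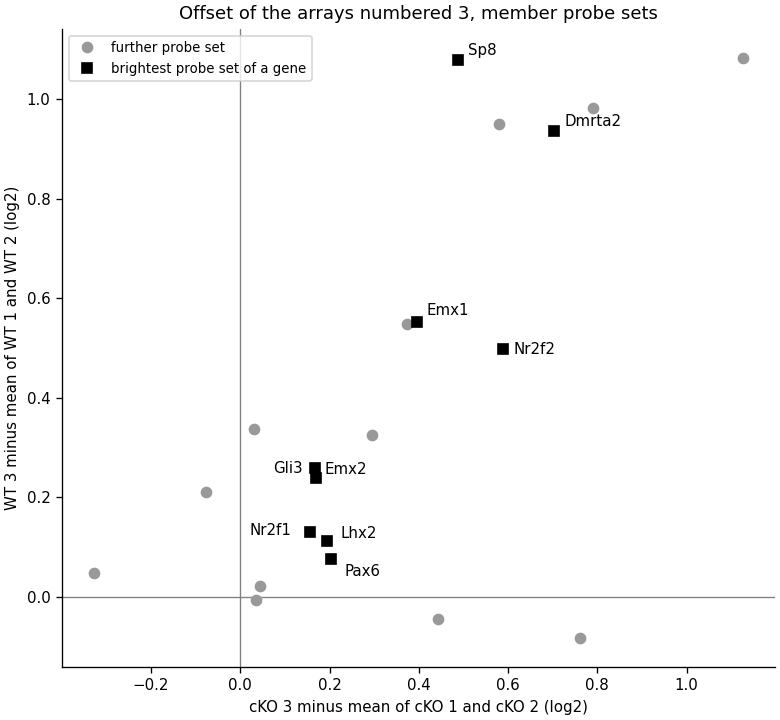
Offset of the array numbered 3 from the mean of the other 2 arrays of its genotype, on the log2 scale, cKO on the horizontal and WT on the vertical axis, for the 21 probe sets, with the brightest probe set of each gene as a black square. All 9 squares lie above 0 on both axes, and of these Sp8 and Dmrta2 lie farthest out.

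Factors and signals that act with these genes were read from lists in the gene table, where each gene is represented by its brightest probe set. Of 27 other area and dorsal factors measured of 31, limma called 0, where 0.627% of all genes were called. Before adjustment (p under 0.05) 1 was higher and 6 lower, where 5.17% of all genes were higher and 4.39% lower. The median of the 27 was -0.12. Lhx9, a LIM homeodomain paralogue of Lhx2, read 568.5, 601 and 568.6 in cKO and 259, 272 and 348 in WT, at 0.96 (SE 0.15, adjusted p = 0.0620). Its cKO arrays lay above its WT arrays, and it was at 1.09 without the arrays numbered 3. Lmo3, a LIM-only cofactor, was at -0.88 (SE 0.16, adjusted p = 0.0983), and Rorb, a nuclear receptor of layer 4 and sensory areas, at -1.09 (SE 0.21, adjusted p = 0.115).

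Of 20 genes of FGF signalling measured of 21, 0 were called, beside 0.627% of all genes, and their median was -0.14. Before adjustment (p under 0.05) 2 were higher and 4 lower, beside 5.17% and 4.39% of all genes. Fgf18, a ligand of cortical neurons, read 88.0, 80.4 and 87.7 in cKO and 192, 147 and 151 in WT, at -0.81 (SE 0.14, adjusted p = 0.0864). Spry2, a feedback inhibitor induced by FGF, was at -0.95 (SE 0.20), and Flrt2, a membrane protein that binds FGF receptors, at 0.59 (SE 0.11). Fgf8, the ligand of the rostral centre that induces Sp8, read 3.5 to 20.8 over all arrays and is too dim to compare.

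Of 20 genes of the cortical hem and its WNT and BMP signals, 0 were called, beside 0.627% of all genes, and their median was -0.048. Before adjustment (p under 0.05) 0 were higher and 3 lower, beside 5.17% and 4.39% of all genes. The 3 lower genes were Wnt7b, a WNT ligand, at -0.51 (SE 0.11), Ttr, a product of choroid plexus, at -0.64 (SE 0.19), and Rspo3, which amplifies WNT signals, at -0.47 (SE 0.18). Ttr was dim, with means of 23.1 in cKO and 45.5 in WT. The summed intensity of the hem list was 6813 to 7903 in cKO and 8002 to 8736 in WT. Most of it came from 2 genes. Sfrp1 read 2975 to 4257 in cKO and 3286 to 3996 in WT, and Wnt7b 1383 to 1506 and 2021 to 2176. The sum therefore does not stand for the hem list as a whole. Of 14 antihem genes and Pax6 targets 0 were called, beside the same 0.627% of all genes, and their median was -0.13. At an unadjusted p under 0.05, 1 was higher and 4 lower, beside the same shares of all genes. Eomes, a Pax6 target that marks intermediate progenitors, read 2783, 3192 and 3404 in cKO and 4689, 4707 and 5062 in WT, at -0.63 (SE 0.13, adjusted p = 0.140), while Neurog2, another Pax6 target, was at 0.13 (SE 0.11). Tle4, a corepressor of deep layer neurons, and Cdh4, a cadherin, were at -1.07 (SE 0.31) and -0.90 (SE 0.30).

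The cells that carry most of the patterning factors are radial glia, whose other markers gave a median of -0.00080 over 17 genes. Of these 0 were called, beside 0.627% of all genes. Before adjustment (p under 0.05) 1 gene was higher and 1 gene lower, where 5.17% of all genes were higher and 4.39% lower. Sox9, a glial and stem cell factor, stood out at 1.92 (SE 0.30, adjusted p = 0.0640), beside Aldh1l1 at -0.69 and Nes, an intermediate filament, at 0.30. The summed intensity of the radial glia list was 38968 to 42775 in cKO and 38055 to 40090.0 in WT. Young neurons had a median of -0.079 over 14 genes with 0 called, beside the same 0.627% of all genes. At an unadjusted p under 0.05, 1 was higher (Slc17a7 at 0.43) and 2 lower (Mapt at -0.54 and Gap43 at -0.33), beside the same shares of all genes. In Cajal-Retzius cells, which arise at the hem and other edges of the sheet, 1 of 9 genes fell and 0 rose, where 0.242% of all genes fell and 0.385% rose. The median was -1.05. Reln, the secreted guide of layer formation, was the gene that fell, at -1.15 (SE 0.14, adjusted p = 0.0266), and its adjusted p was 0.164 without the arrays numbered 3. Ndnf and Lhx5, further markers of these cells, were at -1.34 (adjusted p = 0.0504) and -1.05. Lhx5 was dim, with means of 30.9 in cKO and 79.0 in WT. The cKO arrays lay below the WT arrays for 6 of the 9 genes, beside 7.64% of all genes. For Calb2 (-0.26), Ebf2 (-0.28) and Ebf3 (0.16) they overlapped. The list summed to 3582 to 4527 in cKO and 7866 to 8326 in WT. Most of that sum was Reln, at 2507 to 3197 in cKO and 6198 to 6552 in WT. Of 10 microglial genes 0 reached an unadjusted p of 0.05, beside 9.56% of all genes, with P2ry12 at -0.44, Cx3cr1 at -0.47 and Trem2 at -0.62. Without the arrays numbered 3 the medians were -0.035 for the other area factors, -0.23 for FGF signalling, 0.010 for the hem list and -0.23 for the antihem list. They were then 0.027 for radial glia, -0.14 for young neurons and -0.85 for Cajal-Retzius cells.

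**Figure D5:**
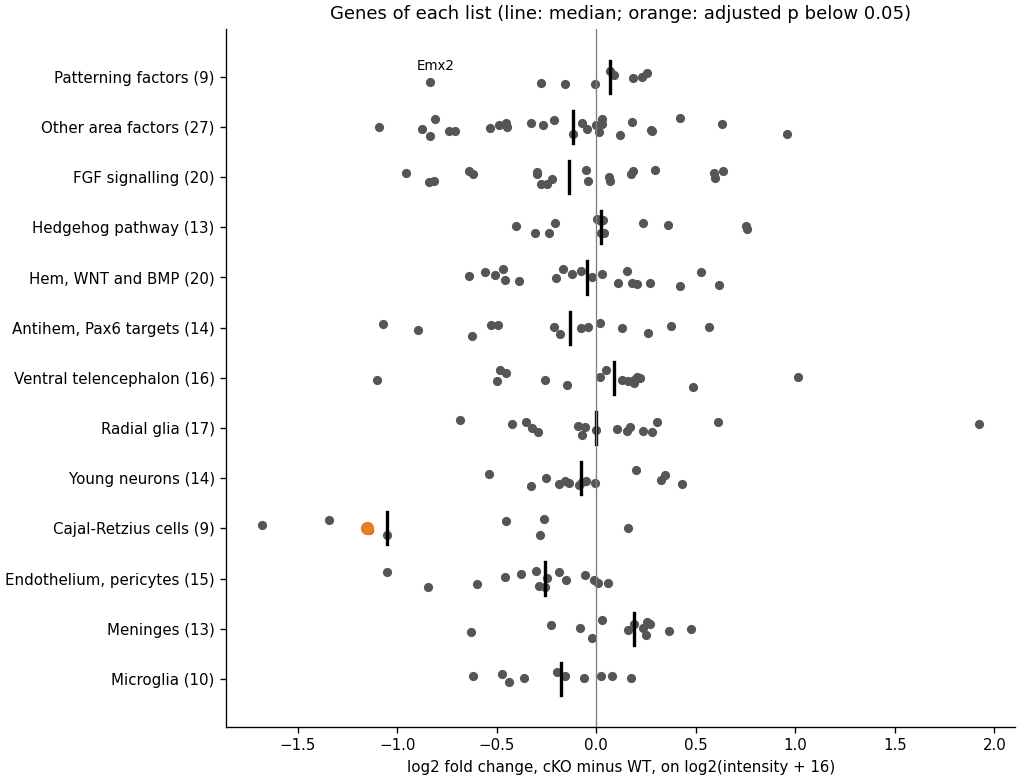
Log2 fold change, cKO minus WT on log2(intensity + 16), of each gene of the lists named at left, with the number of genes measured, the median as a line and genes with an adjusted p below 0.05 in orange. The 9 patterning factors lie between -0.28 and 0.25 apart from Emx2 at -0.83, and Reln is the only gene in orange.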

How the data were processed

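Each of the 6 samples was hybridised to its own single-colour Affymetrix array. The deposited values are intensities on a linear scale, made with the Affymetrix Expression Console per the submitters' processing notes, which name no version or algorithm. Over all probe sets but the top and bottom 2%, the mean intensity lay between 497.2 and 497.7 on every array. The authors' values thus share a scaling, and no further normalization was applied. The table has no detection calls. The design text counts 3 embryos per genotype, and their number limits the precision.

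Intensities were taken to log2(intensity + 16), which makes differences of dim probe sets smaller than the ratio of their intensities. Genotype was the only term of a linear model with empirical Bayes moderation (limma 3.58.1, R 4.3.3), fitted to all 45037 probe sets, with Benjamini-Hochberg adjustment over all of them and a threshold of 0.05. SE is the moderated standard error and ± the SD of 3 arrays. Lists were read from a second fit over 18193 genes, each at its probe set with the highest mean. The platform annotation gave 34945 probe sets 1 gene, 932 several and 9160 none. Of the member symbols, 0 differ from RefSeq (GRCm38.p6). The fit was tested on simulated data. Named are all members, Setdb1, up to 3 genes of each list by smallest p and those past the threshold, and the 5 genes most like the member with the smallest p. The remaining named genes (Ptch1, Fgf8, Neurog2, Tbr1, Neurod6, Xist, Eif2s3y and genes beside members) were chosen for their role or place. Nrp1, Sfrp1, Calb2, Ebf2 and Ebf3 were named to qualify the sums and counts of their lists. Members, lists and tests were chosen with earlier results of these data known. Upstream sequences of all 9 genes, 14 windows, come from RefSeq. Protein sequences were not used here. Alternatives were 2 further normalizations, a filter on dim probe sets, other pseudocounts, other variance settings, array weights, the gene table, blocks, and fits without single arrays or without both arrays numbered 3.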

Additional observations from a re-analysis of the deposited data

How the results depend on the processing

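The count of member probe sets past the threshold was 0 with all 6 arrays and stayed 0 under 15 of 17 alternatives. It was 1 (Emx2) without probe sets below the median mean and 1 (Emx2) with eBayes trend and robust settings. Over all probe sets the count called, 124, moved by more than 1.5 times to 252 and 257 in those fits, 48 with a pseudocount of 1, 205 with one of 64, 7 with the replicate block, 8 without both arrays numbered 3 and 19 to 36 without single arrays, where fewer arrays also lower the power. The log2 fold change of Emx2 ran from -0.90 to -0.75 over its 17 alternatives, with an adjusted p of 0.0259 to 0.385. That of Emx1 changed sign with array weights (0.025) and without both arrays numbered 3 (0.047), and ran from -0.15 to 0.22 without single arrays. Without single arrays Lhx2 ran from -0.032 to 0.24 and Sp8 from -0.62 to 0.082. The cause of these changes was not tested. Pax6, Gli3, Nr2f1, Nr2f2 and Dmrta2 kept their direction under all 17, but single arrays moved their size by over 1.5 times. Without single arrays Pax6 ran from 0.021 to 0.16, Gli3 from -0.25 to -0.058, Nr2f1 from 0.075 to 0.35, Nr2f2 from 0.034 to 0.44 and Dmrta2 from 0.020 to 0.57.

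The replicate numbers match the arrays across genotypes only in part. Deviations from the group means correlated at 0.0787, 0.194 and 0.41 for the numbers 1, 2 and 3. The arrays numbered 3 matched each other, as cKO 3 correlated at -0.161 and -0.307 with WT 1 and WT 2. For the rest the match is unclear, since both cKO 2 and cKO 1 (0.164) correlated best with WT 2. With the replicate block Emx2 was at -0.83 (adjusted p = 0.243) and 0 member probe sets passed. Probe sets near or below the pseudocount, such as 1431237_at of Nr2f2, carry little information on the size of a change.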

Other observations

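The genes that lie nearest to the 9 patterning factors on their chromosomes, 2 measured genes on each side, were read after the values of the factors were seen. Of these 36 genes, limma called 0 in the gene table, 3 had an unadjusted p under 0.05, or 8.33% beside 9.56% of all genes, and 5 had groups that did not overlap, or 13.9% beside 15.5% of all genes. Both genes at higher coordinates than Nr2f1 on chromosome 13 were higher on every cKO array than on any WT array. Nr2f1 is on the minus strand, so they lie on its upstream side. A830082K12Rik read 418.5, 426 and 373 in cKO and 278, 322 and 294 on the WT arrays, which is 0.42 on the log2 scale (SE 0.13, adjusted p = 0.306). Arrdc3, an arrestin-domain protein, read 2705, 2379 and 2178 in cKO and 1806.5, 2064 and 1791 in WT, at 0.35 (SE 0.14, adjusted p = 0.485). Inhba, a subunit of activin that lies near Gli3 on the same chromosome, read 96.3, 105 and 130.0 in cKO and 147, 156 and 216 in WT, at -0.57 (SE 0.19, adjusted p = 0.375).

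The upstream windows of the patterning factors differ in CpG content, from 1 to 34 CpG dinucleotides in 250 bases, where the median of all 32851 RefSeq windows is 6. Gli3 holds 34, Emx1 30 and Emx2 24. Nr2f2 holds 1 in the single window RefSeq gives it here, at chr7:70366747-70366996 on the minus strand, and Sp8 holds 1, 32 and 6 in its 3 windows. The GLI site TGGGTGGTC is in 0 of the 14 windows of these genes and in 0.225% of all windows.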
